A study of Drosophila melanogaster with 144 samples.

Results

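In heads of adult Drosophila melanogaster, 18 protein-coding genes were counted at a mean of at least 2 counts per 1000000 gene counts (CPM) in the line Canton-S B and at a level at least 4 times lower in the inbred line DGRP_892, in females and in males alike. The genes were chosen by these values: of 17381 genes counted, 8790 reached 2 CPM in both sexes of Canton-S B, 29 of them also met the 4-fold condition, and 11 were left out by symbol as single genes set aside by name (whe and CG16826 among them) or as symbols beginning with Cyp, Gst, Ugt, Obp, Tot, Hsp, lncRNA: or asRNA:. The opposite condition, at least 2 CPM in DGRP_892 and 4 times the Canton-S B level in both sexes, was met by 79 genes before any symbol was left out. The difference between the lines is therefore what selected the 18 genes. It is described below without a test, whereas differences between the sexes, over circadian time and between replicate numbers, which the choice did not use, were tested.

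The fly head holds the compound eyes, the brain, fat body, cuticle and the sensory organs of the antennae, so its RNA mixes transcripts of very different cells. Among the 18 genes are Cpr72Ec, a chitin-binding cuticle protein of the Rebers and Riddiford family known from the corneal lens, and Osi2, a member of the Osiris family of insect transmembrane proteins found mainly in cuticle-forming epithelia. Also present are Diedel, a small secreted protein induced on infection that tempers immune signalling, the channel gene Cngl, the transporter genes Oatp26F and mah, and Ada1-1, a paralogue of a subunit of the histone acetyltransferase complex SAGA. Inbred lines drawn from different stocks differ at many sites of the genome, and steady differences in transcript level between such lines are common.

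Flies of both lines were raised in the same medium under a light and dark cycle of 12 h each. The Canton-S B cultures carry the white mutation w1118, and DGRP_892 is an inbred stock of the Drosophila Genetic Reference Panel, so each genotype is represented by a single line. Virgin females and virgin males were kept apart, held for 3 days under light and dark cycles in incubators of opposite phase, moved to constant darkness for 3 days and frozen every 2 h, at 12 circadian times (CT). Their age at freezing was not given in the sources used here. Each library came from 150 heads, and the procedure was run 3 times, which gave 48 groups of 3 libraries, 144 libraries in all and 36 for each line and sex.

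The libraries held 11.66 to 37.34 M gene counts (M stands for 1000000), with a median of 15.24 M. The depths fell into 48 libraries of 25.45 to 37.34 M and 96 of 11.66 to 18.01 M. The white gene, w, had a mean of 0.246 CPM in Canton-S B and 28.7 CPM in DGRP_892, the direction that the w1118 label gives. The summed level of 13 photoreceptor markers had medians of 71894 CPM in females and 88930 CPM in males of Canton-S B, against 89888 and 109953 CPM in DGRP_892, while the median line difference over the 13 genes was 0.04 on the log2 scale. For 8 fat body markers the medians were 11315 and 9567 CPM in Canton-S B and 21384 and 16180 CPM in DGRP_892. The corresponding medians of 9 haemocyte markers were 1718 and 1150 CPM against 1233 and 887 CPM, and those of 11 flight muscle markers 3294 and 2309 CPM against 2023 and 1821 CPM. Sums of 10 neuron markers were 3899 and 5252 CPM against 3186 and 4427 CPM, and those of 8 glia markers 3070 and 3788 CPM against 2465 and 3430 CPM. Median sums of gut and ovary markers were higher in DGRP_892, with 19.99 and 21.6 CPM against 44.8 and 85.6 CPM for gut and 3.82 and 3.27 CPM against 10.3 and 9.29 CPM for ovary. The median line difference per gene, DGRP_892 minus Canton-S B, was 0.08 on the log2 scale over 10 gut markers tested and 0.82 over 5 ovary markers. It was 0.67 for fat body, -0.34 for haemocyte, -0.47 for flight muscle, -0.10 for neuron and -0.20 for glia markers. Of the markers counted in these lists, 1 gut marker was at 0 in every library. The part of these values in the levels of the 18 genes was not tested, and in pooled heads fewer cells of a type and less RNA per cell cannot be told apart.

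Of the 18 genes, 13 were higher in every Canton-S B library than in any DGRP_892 library of the same sex, in both sexes, a separation met by 0.808% of the 10894 genes tested, 88 genes. This count restates the choice of the genes and is given as a description. Over the 24 combinations of sex and circadian time, 16 of the 18 had the higher mean in Canton-S B in all 24. For 14 genes the 3 Canton-S B libraries lay above the 3 DGRP_892 libraries in each of the 24. Both counts again restate the choice of the genes, and their shares over all genes tested were not computed. The exceptions to full separation over libraries were lcs, Diedel, CG11741, mah and CG8563, whose levels varied widely within a line or were low. The 4-fold condition itself, before symbols were left out, was met by 0.266% of the genes tested. All 18 passed the filter on low counts applied before the tests, which they could do through Canton-S B alone.

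**Figure D1:**
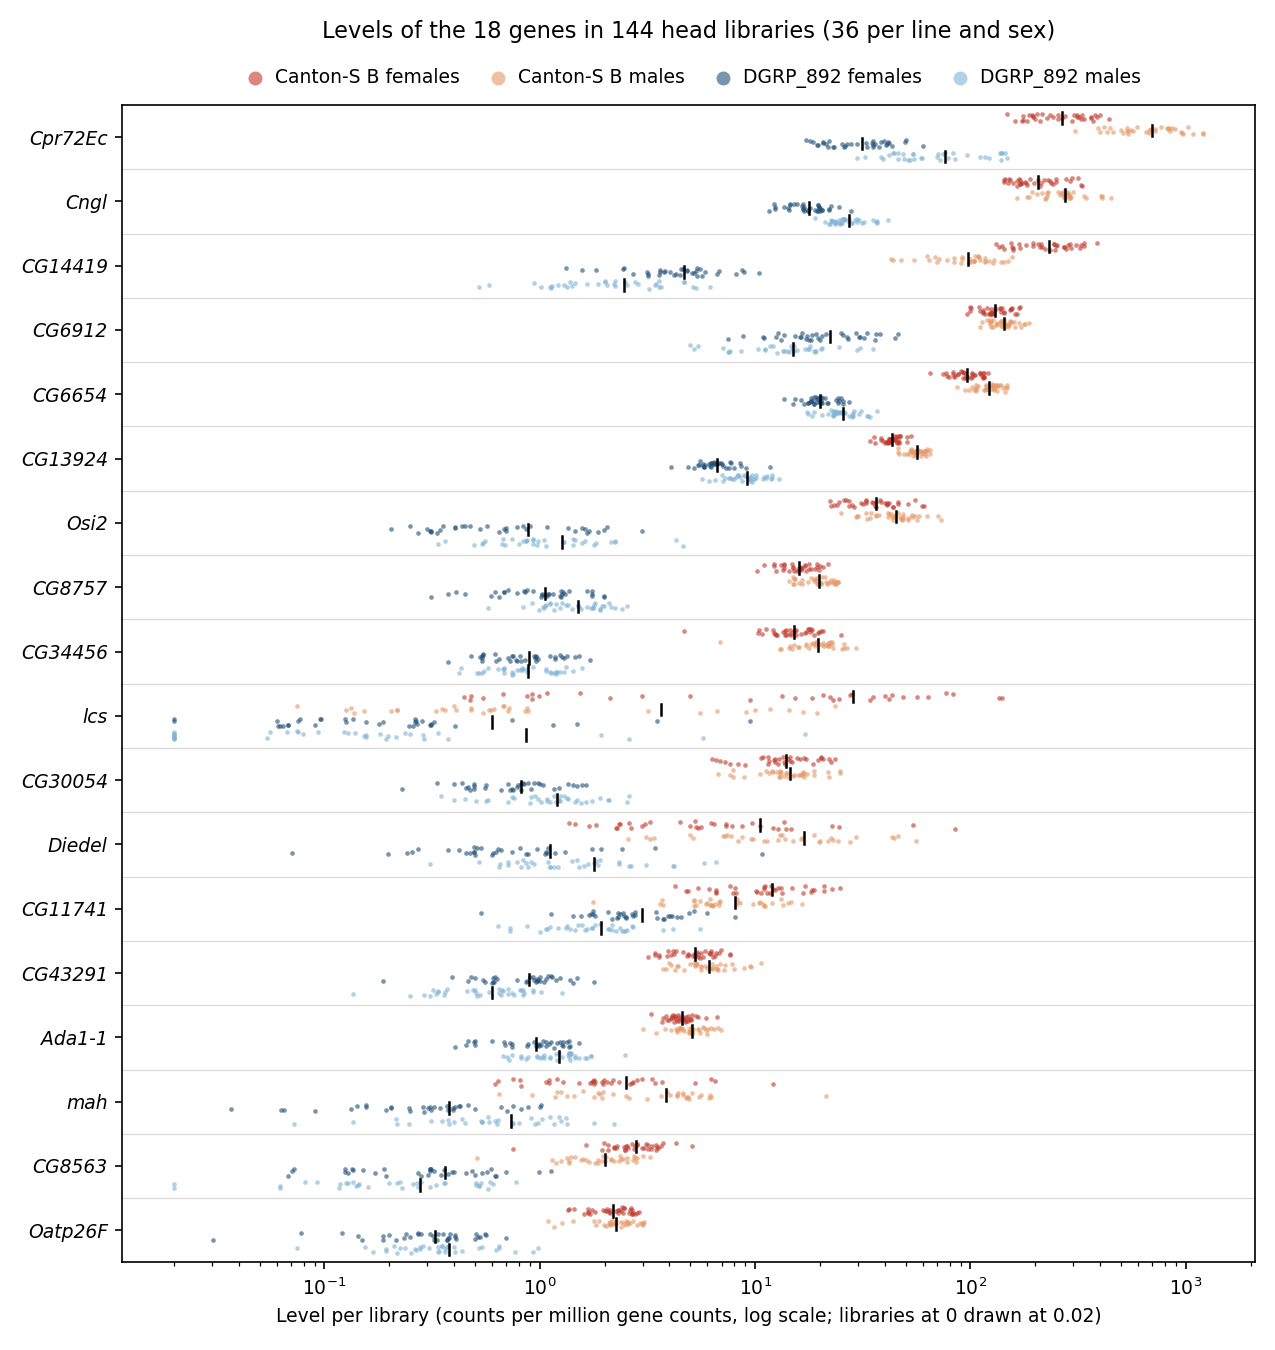
Level of each of the 18 genes in every library, in CPM on a log scale, for females and males of Canton-S B and DGRP_892 (36 libraries each), with genes ordered by their mean level in Canton-S B. Points are libraries, those at 0 are drawn at the left edge, and bars are group means, and for 13 genes the points of the lines do not overlap in either sex, whereas those of lcs, Diedel, CG11741, mah and CG8563 do.

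Cpr72Ec, on chromosome 3L at 16365894 to 16367340 of FlyBase release 6, was the most highly expressed of the 18 per kb of exon over both sexes of Canton-S B, at 333 CPM per kb, although in females CG14419 stood higher, with 317 against 184 CPM per kb. In Canton-S B its lowest, median and highest libraries had 148, 255 and 437 CPM in females and 307, 676 and 1205 CPM in males. In DGRP_892 they had 17.2, 31.3 and 60.3 CPM in females and 29.7, 64.5 and 148 CPM in males. The lines did not overlap within a sex, although the highest DGRP_892 male library came close to the lowest Canton-S B female library. The ratio of line means was 8.94 over all libraries and ranged from 5.43 to 11.5 over the 24 combinations of sex and time. Its neighbours by name, Cpr72Ea and Cpr72Eb, were too low to test, with means of 0.0734 and 0.0420 CPM in Canton-S B.

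Osi2, on 3R at 6209373 to 6213493, had a ratio of 37.8 over all libraries, behind CG14419 alone, although in females the ratio of lcs, 47.2, was above its 41.3. Canton-S B females ranged from 22.2 to 60.7 CPM with a median of 35.5 CPM, and males from 25.0 to 73.2 CPM with a median of 44.3 CPM. In DGRP_892 the lowest, median and highest libraries were at 0.205, 0.662 and 2.97 CPM in females and 0.338, 0.952 and 4.60 CPM in males. Osi2 was thus the most abundant Osiris gene of the Canton-S B head and fell to about 1 CPM in DGRP_892. Of the 22 other Osiris genes counted, 6 were abundant enough to test and none was 4 times lower in DGRP_892. Their line differences averaged over the sexes ran from -1.63 on the log2 scale for Osi9 to 2.84 for Osi6, both low in either line. The adjoining Osi24 had 4.82 ± 0.928 CPM in Canton-S B and 3.74 ± 0.654 CPM in DGRP_892 (SD, n = 72 each), a far smaller difference.

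Diedel, on 3R at 29493852 to 29494267, varied more within a line than most. Its lowest, median and highest libraries were 1.36, 5.51 and 85.01 CPM in Canton-S B females and 2.57, 13.2 and 55.6 CPM in Canton-S B males. In DGRP_892 they were 0.0710, 0.634 and 10.7 CPM in females and 0.310, 1.31 and 6.59 CPM in males. Medians differed clearly between the lines, but single libraries overlapped, and in 1 of the 24 combinations of sex and time the DGRP_892 mean was the higher, with a ratio of 0.560. The ratio of line means was 9.45. The coefficient of variation was 152% among Canton-S B females and 77.5% among males of that line, against a median of 26.9% over the 18 genes and both sexes.

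Cngl, on the X chromosome at 15386038 to 15441252, encodes a channel of the cyclic nucleotide-gated family and had the longest annotated exon sequence of the 18, 14670 bp. Canton-S B libraries ran from 142.9 to 330 CPM in females, median 187 CPM, and from 165 to 451 CPM in males, median 272 CPM. In DGRP_892 the ranges were 11.6 to 27.9 CPM, median 17.5 CPM, and 18.96 to 41.2 CPM, median 25.8 CPM. No library of one line came near the other, and the ratio of means was 10.7. Its relatives CngA and CngB, further subunits of cyclic nucleotide-gated channels, differed by -0.09 and -0.19 on the log2 scale, far less than Cngl.

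CG30054, on 2R at 12623726 to 12625352, codes for a protein like the alpha subunit of heterotrimeric G proteins and lies between the related genes Galphaq and CG17760. Its lowest, median and highest libraries were 6.29, 13.6 and 23.6 CPM in Canton-S B females and 6.69, 14.04 and 24.9 CPM in males. In DGRP_892 they were 0.228, 0.787 and 1.64 CPM and 0.349, 1.18 and 2.61 CPM. The lines were fully apart, with a ratio of 14.1. The adjoining genes differed less: Galphaq had 253 ± 45.5 and 197 ± 39.6 CPM, and CG17760 had 5.12 ± 1.60 and 2.46 ± 0.713 CPM, in Canton-S B and DGRP_892 (SD, n = 72 each). Over the 6 related alpha-subunit genes tested, line differences ran from -0.94 to 0.10 on the log2 scale.

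Both transporter genes were among the lowest of the 18. Oatp26F, an organic anion transporting polypeptide gene on 2L, had means of 2.19 CPM in females and 2.26 CPM in males of Canton-S B and of 0.328 and 0.381 CPM in DGRP_892, a ratio of 6.29. Of 7 other Oatp genes, 5 were tested and ranged from -1.47 to 0.67 on the log2 scale, and Oatp74D, an ecdysone importer, was higher in DGRP_892 with 82.4 against 56.7 CPM. The gene mah, on 3R at 24947632 to 24949539, belongs to the amino acid transporter superfamily. Its lowest, median and highest libraries were 0.620, 1.95 and 12.1 CPM in Canton-S B females and 0.643, 3.77 and 21.3 CPM in males, against 0.0366, 0.318 and 1.01 CPM and 0.0721, 0.627 and 2.21 CPM in DGRP_892. The ratio of its line means was 5.69, and the lowest Canton-S B libraries fell within the range of DGRP_892.

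Of the genes with nuclear roles, CG6654, a C2H2 zinc finger gene on 3R at 15211277 to 15213658, was even across libraries. Canton-S B ranged from 65.03 to 120.5 CPM in females, median 94.8 CPM, and from 87.01 to 148 CPM in males, median 125 CPM. DGRP_892 ranged from 13.6 to 27.3 CPM, median 19.5 CPM, and from 17.3 to 36.7 CPM, median 24.6 CPM, a ratio of 4.81. Ada1-1, on 2L, had means of 4.55 and 5.07 CPM in females and males of Canton-S B and of 0.957 and 1.22 CPM in DGRP_892, a ratio of 4.41. Its paralogue Ada1-2 had the opposite direction, with 1.46 ± 0.420 CPM in Canton-S B and 2.59 ± 0.662 CPM in DGRP_892 (SD, n = 72 each).

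CG8563, a metallocarboxypeptidase gene on 3L, was low in both lines. Its means were 2.81 and 2.01 CPM in females and males of Canton-S B and 0.363 and 0.277 CPM in DGRP_892, where males held on average 5.25 counts a library and 2 male libraries held none. The ratio was 7.53, and the ranges of the lines touched in both sexes.

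The largest ratio over all libraries, 45.98, belonged to CG14419, on the X chromosome at 2885186 to 2885914. Its lowest, median and highest libraries were 131.7, 228 and 389 CPM in Canton-S B females and 42.9, 101.6 and 156 CPM in males. In DGRP_892 they were 1.33, 4.49 and 10.5 CPM in females and 0.523, 2.14 and 6.19 CPM in males. The lines were separated by a wide gap in each sex, and the ratio stayed between 20.7 and 102.2 over the 24 combinations. CG14419 lies wholly within kirre, on the opposite strand, and kirre differed little, with 15.5 ± 3.69 CPM in Canton-S B and 12.4 ± 3.36 CPM in DGRP_892 (SD, n = 72 each). Whether the counting used strand was not given in the sources used here, and without it reads of overlapping genes cannot be told apart.

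For CG34456, on 3L at 9362108 to 9362734, the lowest, median and highest libraries were 4.70, 14.9 and 25.0 CPM in Canton-S B females and 6.84, 19.5 and 29.4 CPM in males. In DGRP_892 they were 0.375, 0.811 and 1.71 CPM and 0.420, 0.825 and 1.57 CPM, and the ratio of means was 19.6. CG8757, on 3L at 13840197 to 13842240, had 10.2, 16.2 and 21.7 CPM in Canton-S B females and 14.4, 19.7 and 24.3 CPM in males, against 0.311, 1.04 and 1.99 CPM and 0.574, 1.504 and 2.53 CPM, a ratio of 13.9. Both genes were low in DGRP_892 and did not overlap between the lines.

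CG6912, on 3R at 15135138 to 15137004, ranked behind Cpr72Ec and CG14419 in level per kb of exon. Its lowest, median and highest libraries were 96.6, 125.6 and 169 CPM in Canton-S B females, 110.9, 140.7 and 188 CPM in males, 7.47, 19.3 and 45.9 CPM in DGRP_892 females and 5.01, 14.5 and 35.4 CPM in males. Its coefficient of variation was 15.4% in females and 13.2% in males of Canton-S B and 44.3% and 46.96% in DGRP_892, but no library of one line entered the range of the other, and the ratio was 7.31. CG13924, on 3L at 1870019 to 1871564, ran from 34.3 to 52.98 CPM in females and 46.1 to 64.8 CPM in males of Canton-S B, medians 42.7 and 56.1 CPM. In DGRP_892 it ran from 4.09 to 11.7 CPM and 5.66 to 12.9 CPM, medians 6.42 and 9.33 CPM, a ratio of 6.28. CG43291, on 3R, had means of 5.25 and 6.13 CPM in females and males of Canton-S B and of 0.888 and 0.597 CPM in DGRP_892, a ratio of 7.66.

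Both remaining genes lay near the 4-fold threshold in at least one sex. CG11741, on 3R, had lowest, median and highest libraries of 4.25, 11.3 and 24.7 CPM in Canton-S B females and 1.77, 6.79 and 16.6 CPM in males, against 0.533, 2.52 and 8.10 CPM and 0.640, 1.74 and 5.56 CPM in DGRP_892. Its ratio over all libraries was 4.09. The gene lcs, on the X chromosome at 21396727 to 21397316, had 0.443, 19.6 and 140 CPM in Canton-S B females and 0.0746, 0.603 and 23.4 CPM in males, against 0, 0.183 and 9.48 CPM and 0, 0.134 and 17.04 CPM in DGRP_892. It was high in some libraries of both lines and near 0 in others. The ratio of line means was 47.2 in females and 4.22 in males, and the medians were also lower in DGRP_892 in both sexes. In Canton-S B males the mean of 3.66 CPM met the floor of 2 CPM, whereas the median of 0.603 CPM did not. Within Canton-S B its coefficient of variation was 125% in females and 169% in males.

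Judged by the smaller of the ratios in females and males, the members just inside the threshold were lcs at 4.22, Ada1-1 at 4.14 and CG11741 at 4.03. Just outside it lay Jhe, the juvenile hormone esterase gene, at 3.97, CG9150 at 3.96 and CG6891 at 3.86. Membership at this edge changed with scaling: when CPM were scaled by the trimmed mean of M values (TMM) in place of the gene totals, lcs, CG8563, CG11741 and Ada1-1 fell below a condition and 14 genes remained.

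The 18 genes were spread over the genome. Chromosome 3R held 7, 3L held 5, X held 3, 2L held 2 and 2R held 1. As shares these are 38.9% on 3R and 27.8% on 3L, where 24.8% and 19.4% of all genes tested lie. No pair lay within 20 kb of each other, and the closest, CG6912 and CG6654, were 74.3 kb apart on 3R. Among the members, lower levels in DGRP_892 were thus not seen as a block of adjoining genes. Genes left out by symbol were not part of this count. Of these, 2 that met the 4-fold condition flank a member and are given below.

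The 36 genes that flank the members were compared between the lines. A pair of them met the same 4-fold condition but had been left out by symbol. One is whe, 5023 bp from lcs, and the other is asRNA:CR45600, which shares 20 bp with CG6912 on the same strand and had 114.6 ± 13.1 CPM in Canton-S B and 6.69 ± 3.31 CPM in DGRP_892 (SD, n = 72 each). Of the other 34 flanking genes, 4 differed at least 2-fold, or 11.8%, beside 8.06% of all 10801 genes tested with a position. These were w, 88720 bp from CG14419 and higher in DGRP_892 by 6.98 on the log2 scale, Klp67A, higher by 1.14, Or85d, higher by 1.01, and CG9624, which differed by -2.39. The share lower in DGRP_892 was 21 of 34, beside 54.1% of all genes. The median absolute difference of the 34 was 0.28 on the log2 scale, beside 0.15 for all genes tested with a position.

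**Figure D2:**
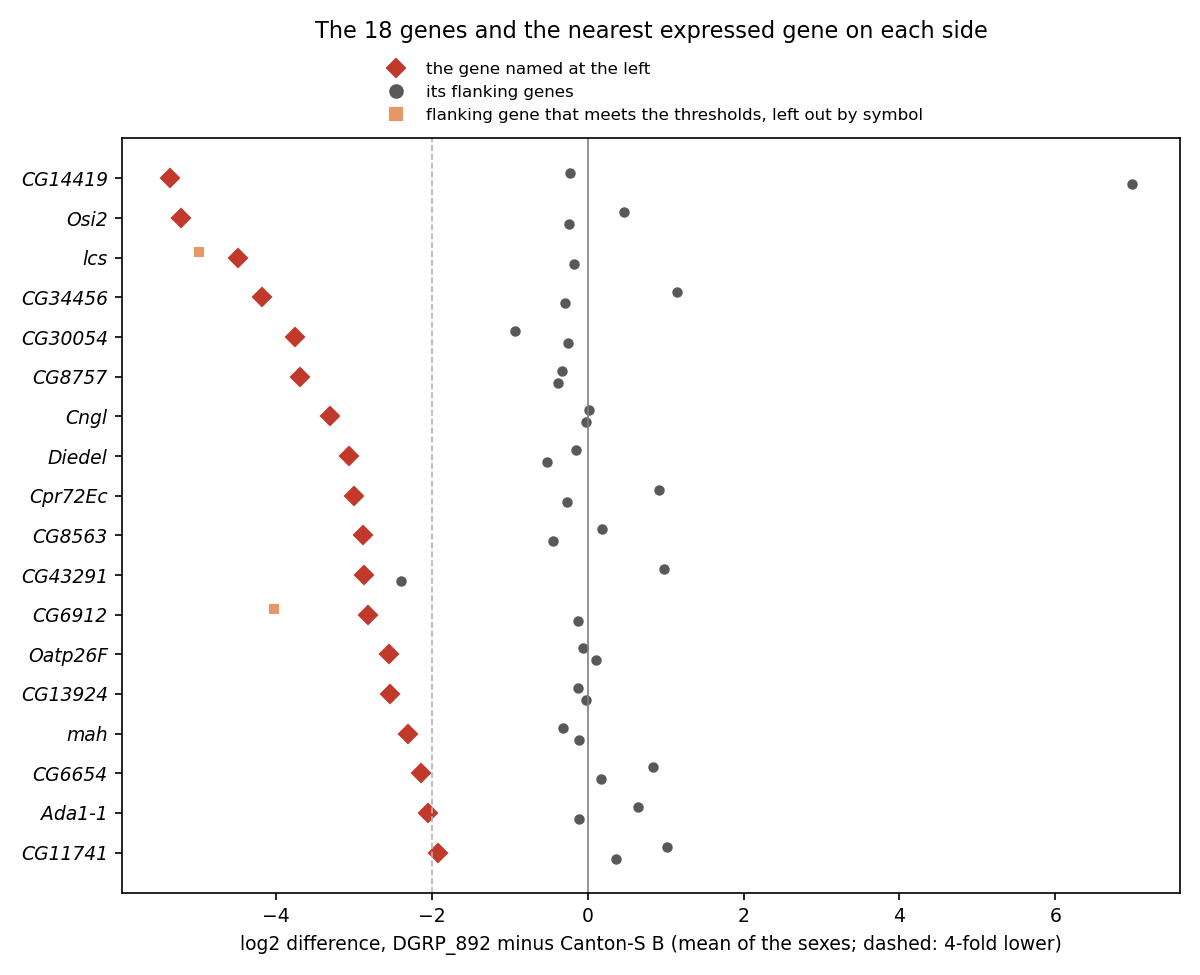
Difference between the lines, DGRP_892 minus Canton-S B on the log2 scale and averaged over the sexes, for each of the 18 genes and the tested genes that flank it on either side. Diamonds are the 18 genes, circles are flanking genes, squares are flanking genes that meet the condition but were left out by symbol, and the dashed line marks a level 4 times lower. The differences are those of edgeR, scaled by TMM, so that CG11741 lies just to the right of the dashed line. Most circles lie less than 1 from 0, whe and asRNA:CR45600 (squares) lie with the diamonds, and w lies far to the right.

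Overlap with another gene was found for 7 of the 18, and the partners on the opposite strand did not follow the members. Mau2, a cohesin loader gene sharing 71 bp with CG6654, had 11.9 CPM in Canton-S B and 12.3 CPM in DGRP_892. Klp67A, a kinesin gene sharing 99 bp with CG34456, had 0.793 and 1.60 CPM, and CG18787, sharing 66 bp with Ada1-1, had 2.29 and 3.31 CPM. The antisense transcript asRNA:CR46266, which covers 1588 bp of CG8757, was close to 0 in both lines.

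Between the sexes of Canton-S B, 12 of the 18 genes differed by edgeR's quasi-likelihood test with a Benjamini-Hochberg adjusted p under 0.05 beside 54.6% of all genes tested. Higher in males were 8 members, where 28.8% of all genes were, and lower in males were 4, where 25.8% of all genes were. The median difference, male minus female, was 0.14 on the log2 scale over the members and 0.02 over all genes. The members did not share one direction: the cuticle, channel, transporter and immune genes that differed were higher in males, and lcs, CG14419, CG11741 and CG8563 were lower.

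Cpr72Ec was higher in Canton-S B males by 1.26 ± 0.13 (SE) on the log2 scale, with an adjusted p of 4.30e-15 by edgeR, in 12 of 12 circadian times. Diedel was higher by 0.84 ± 0.23 (adjusted p = 0.00109), in 10 of 12 times. For mah the difference was 0.49 ± 0.17 (adjusted p = 0.0111), in 11 of 12 times. Smaller rises of 0.29 for Cngl, 0.26 for CG13924, 0.25 for CG34456, 0.22 for CG6654 and 0.19 for CG8757 also passed, with adjusted p values between 1.49e-07 and 0.0177. Genes higher in males thus included Cpr72Ec, one of the most abundant members, and mah, one of the scarcest. Leaving out replicate 1 ended the calls of mah (adjusted p = 0.0942 by edgeR) and CG8757 (0.115), and leaving out replicate 2 those of CG34456 (0.157) and CG8757 (0.0525).

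Among the genes lower in males, lcs fell by 3.49 on the log2 scale (SE 0.43, edgeR adjusted p = 3.64e-11) and was higher in females at all 12 times. CG14419 fell by 1.35 (SE 0.12, adjusted p = 1.33e-18), again at all 12 times. CG11741 fell by 0.68 and CG8563 by 0.61, with adjusted p values of 1.16e-05 and 7.93e-05. No sex difference passed the test for Osi2, CG6912, CG30054, Oatp26F, Ada1-1 or CG43291 in Canton-S B.

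In DGRP_892, where the same genes were scarce, 11 of the 18 differed between the sexes, beside 56.9% of all genes tested. Higher in males were 6, beside 31.4% of all genes, and lower were 5, beside 25.5%. Cpr72Ec was again higher in males, by 1.07 ± 0.13 (SE, edgeR adjusted p = 7.43e-12, 12 of 12 times), and mah by 0.85 ± 0.24 (adjusted p = 0.00116, 12 of 12 times). Cngl was higher by 0.41, CG8757 by 0.28, CG13924 by 0.25 and CG6654 by 0.14, with adjusted p values of 3.95e-06, 0.0142, 6.69e-06 and 0.0168. CG14419 fell by 1.15 in males (SE 0.15, adjusted p = 1.29e-10), and CG11741, CG43291, CG6912 and CG8563 fell by 0.81, 0.79, 0.77 and 0.69, with adjusted p values of 9.82e-06, 7.28e-07, 6.00e-10 and 0.00358. In DGRP_892 the differences of Diedel, 0.65, and lcs, -0.69, did not pass, and for lcs the mean was the higher in males, 0.868 against 0.600 CPM. In the authors' batch-corrected table the difference of CG14419 in DGRP_892 turned to 0.39 and that of Cngl to -0.14, neither past the threshold by limma. In that table the DGRP_892 calls of mah (adjusted p = 0.126), CG8563 (0.116) and CG6654 (0.051) were also lost, as was the Canton-S B call of Cngl (0.576). Calls also ended for CG8757 without replicate 1 and without replicate 3 (edgeR adjusted p = 0.119 in the latter), for CG6654 without replicate 3 (0.293), for mah without replicate 2 (0.095) and for CG8563 without replicate 2, where its difference was -0.25 (0.460). CG6912 and CG43291 passed in DGRP_892 and did not pass in Canton-S B. Whether the sex difference itself differs between the lines was not tested, because the choice of genes used the line ratio in each sex.

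**Figure D3:**
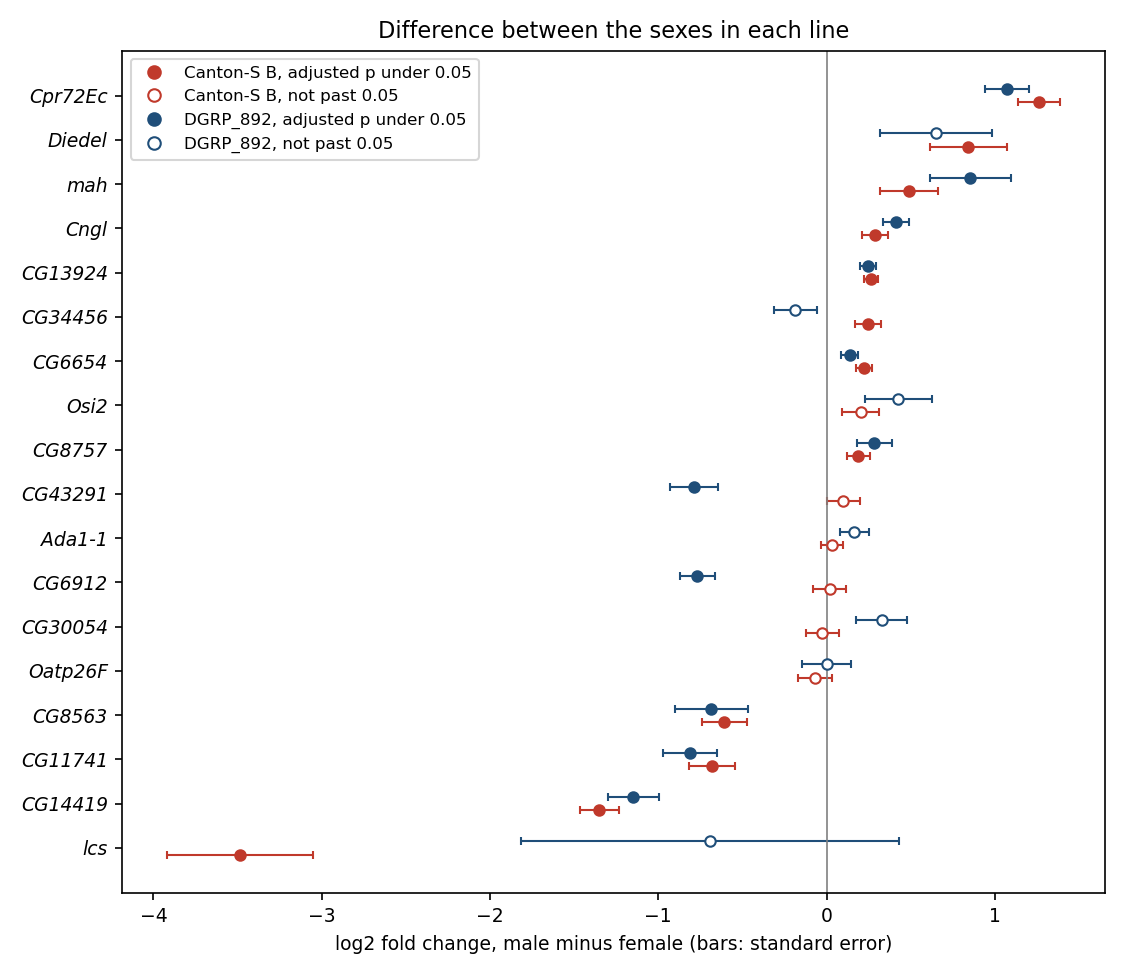
Sex difference of each of the 18 genes, male minus female on the log2 scale with its standard error, in Canton-S B and in DGRP_892 from edgeR. Filled points have an adjusted p under 0.05, and Cpr72Ec lies to the right and CG14419 to the left of 0 in both lines.

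The sex differences above are relative to the other genes of a library. When libraries were scaled by the added ERCC RNA (92 spike-in transcripts, 0.387% of all counts) in place of the genes, the median of all genes moved to 0.27 in Canton-S B and 0.19 in DGRP_892. The share of called genes that were higher in males then moved from 52.8% to 87.6% in Canton-S B and from 55.2% to 76.6% in DGRP_892. Of the members called here in either line none changed sign, while in Canton-S B the uncalled CG30054 moved from -0.02 to 0.22 and Oatp26F from -0.07 to 0.16. With this scaling 13 members passed in Canton-S B, CG43291 being added (edgeR adjusted p = 0.0407), and 11 in DGRP_892. The shares of all genes tested were 38.6% and 24.9%. In DGRP_892 CG8563 (edgeR adjusted p = 0.0653) and CG6654 (0.203) no longer passed, and Diedel (0.0176) and CG30054 (0.0128) did.

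Over circadian time in constant darkness, 4 of the 18 genes had a 24-h rhythm in Canton-S B by edgeR's quasi-likelihood test of a cosine and sine fitted over both sexes, beside 6.01% of all genes tested. These were mah, Cpr72Ec, CG8757 and lcs. Amplitudes, given from mean to peak on the log2 scale, were 0.80 for mah (adjusted p = 5.68e-06), 0.34 for Cpr72Ec (adjusted p = 0.00882), 0.20 for CG8757 (adjusted p = 0.00879) and 1.02 for lcs (adjusted p = 0.0338). The first 3 were highest in the subjective day and lcs in the subjective night.

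The means of mah in Canton-S B were highest at CT04 in both sexes. In females they were 6.70 CPM at CT04 and 1.10 CPM at CT22, and in males 10.5 CPM at CT04 and 1.36 CPM at CT16. The CT04 means were drawn up by the libraries of replicate 1, with 12.1 CPM for females and 21.3 CPM for males, while the other 4 ranged from 1.79 to 6.25 CPM. Without the CT04 libraries of replicate 1 in all 4 groups of line and sex the amplitude of mah was 0.60 with an adjusted p of 0.00149 by edgeR, a setting chosen after the values were seen. In that setting 4 of the 18 passed, beside 5.08% of all genes tested.

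Cpr72Ec peaked near CT 7.22 over the 6 series formed by sex and replicate number, and all 6 peaked within 3 h of it. Its mean was 351 CPM at CT08 and 188 CPM at CT20 in Canton-S B females, and 932 CPM at CT04 and 451 CPM at CT16 in males. CG8757 peaked near CT 6.95, again with all 6 series within 3 h. Its mean was 19.1 CPM at CT08 and 11.6 CPM at CT16 in females, and 23.2 CPM at CT04 and 15.0 CPM at CT16 in males. The gene lcs peaked near CT 20.8, with 4 of 6 series within 3 h, and mah near CT 6.40, also with 4 of 6.

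These calls depended on the libraries and the scaling used. Without replicate 1 none of the 18 passed, beside 1.81% of all genes tested. In that setting mah had an amplitude of 0.54 with an adjusted p of 0.102 by edgeR. Without replicate 3, or with libraries scaled by the ERCC RNA, mah alone passed, beside 2.75% and 0.34% of all genes. In the authors' batch-corrected table Cpr72Ec did not pass by limma (adjusted p = 0.490), and lcs did not pass with DESeq2 (adjusted p = 0.108).

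No member had a 24-h rhythm in DGRP_892 by edgeR, beside 0.477% of all genes tested, 52 genes. At an unadjusted p under 0.05 there were 4 members, beside 1264 of all 10894 genes, and the smallest adjusted p was 0.0933, for CG6912 with an amplitude of 0.31. DESeq2 called none, beside 0.296% of all genes. Under ERCC scaling, or without the filter on low counts, 1 member passed, beside 0.441% and 1.68% of all genes. The test of a difference in rhythm between the lines also called none of the 18, beside 0.156% of all genes. At an unadjusted p under 0.05 it had 4 members and 541 of all 10894 genes. DESeq2 called none, beside 0.166% of all genes. By edgeR the smallest adjusted p values of this test were 0.637 for CG6912 and 0.825 for CG8757. The amplitude of Cpr72Ec was 0.15 in DGRP_892 with an adjusted p of 0.531, and that of mah was 0.30 with an adjusted p of 0.559. For CG8757 it was 0.06 (adjusted p = 0.868), whereas for lcs it was 1.67 (0.195), above its 1.02 in Canton-S B. In DGRP_892, lcs was at 0 in 2 female and 9 male libraries. Fitted to log2 CPM over the 6 series of sex and replicate number, its amplitudes had the opposite order. They were 1.29 ± 0.41 (SE) in Canton-S B and 0.31 ± 0.15 in DGRP_892. A loss of rhythm in DGRP_892 was thus not shown for any member.

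**Figure D4:**
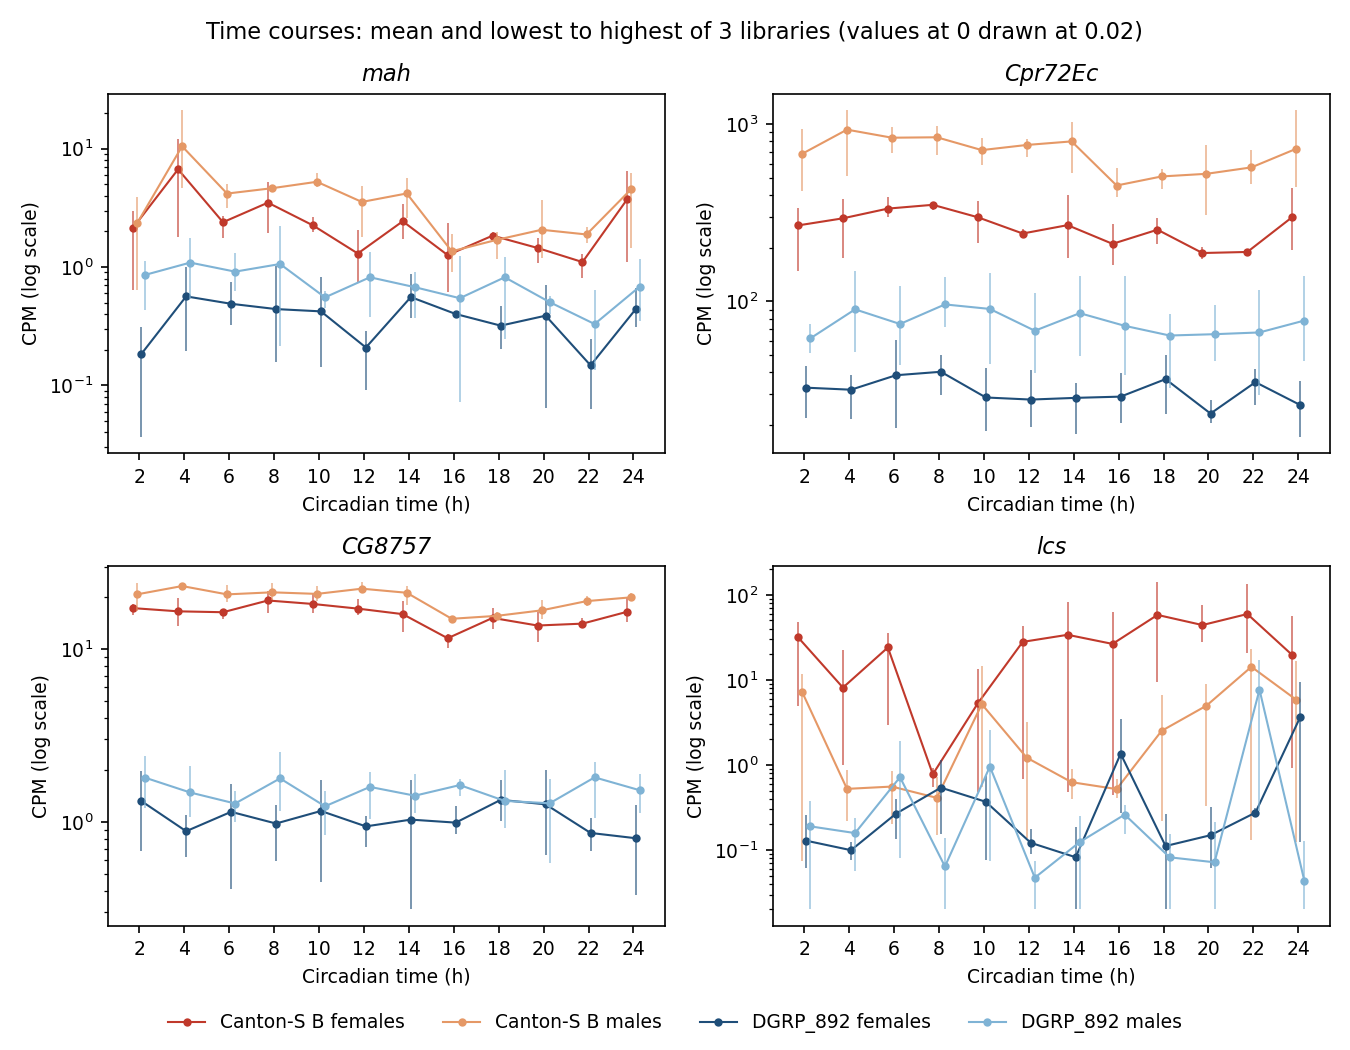
Mean CPM on a log scale against circadian time in hours for mah, Cpr72Ec, CG8757 and lcs in females and males of Canton-S B and DGRP_892, with points at the mean and vertical lines from the lowest to the highest of 3 libraries (values at 0 are drawn at the lower edge). The Canton-S B lines of Cpr72Ec and CG8757 are highest in the first part of the day, those of mah at CT04, and the DGRP_892 lines lie below them with 1 exception for lcs.

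The procedure was run 3 times and its libraries carry replicate numbers 1 to 3. Whether a number marks the same run in every group was not given in the sources used here. By edgeR's test of the replicate number within Canton-S B, 5 of the 18 genes differed, beside 28.5% of all genes tested. Adjusted p values were 0.00110 for Cpr72Ec, 0.00272 for CG43291, 0.00416 for mah, 0.0190 for CG6654 and 0.0498 for lcs. Cpr72Ec had replicate means of 249, 316 and 234 CPM in females and 596, 847 and 646 CPM in males (n = 12 each). It was highest in replicate 2 in both sexes. Without replicate 2 none of the 18 passed, beside 2.24% of all genes. CG43291 was lowest in replicate 2 in both sexes, with 4.42 CPM in females and 5.13 CPM in males.

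In DGRP_892 the replicate number separated 4 of the 18 genes, beside 4.13% of all genes tested. These were Cpr72Ec (edgeR adjusted p = 2.47e-11), Osi2 (2.91e-07), CG13924 (4.46e-05) and CG6654 (0.000239), each highest in replicate 3. Cpr72Ec had means of 24.6, 29.6 and 40.2 CPM in females and 53.7, 54.1 and 120.9 CPM in males for replicates 1, 2 and 3 (n = 12 each). Osi2 had 0.518, 0.711 and 1.41 CPM in females and 0.899, 0.899 and 2.03 CPM in males. In males, CG6654 had 23.3, 23.9 and 29.3 CPM and CG13924 had 8.27, 8.93 and 10.3 CPM. In each case replicate 3 of DGRP_892 stood above the other two in both sexes, and its level stayed well below that of Canton-S B. Without replicate 3 none of the 18 passed. The share of all genes in that setting is not given here, so this count is not read as a result about the members.

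The test of whether the replicate number acts differently in the lines, chosen after the values were seen, called the same 4 genes, beside 13.4% of all genes. With ERCC scaling Cpr72Ec and Osi2 passed it, and among libraries above 20 M gene counts Cpr72Ec alone did. Depth differs between libraries, so the comparison was repeated within depth classes. Among libraries above 20 M gene counts, Cpr72Ec had 67.9, 41.6 and 120.5 CPM in males of DGRP_892 for replicates 1, 2 and 3 (n = 4 each). Among the others it had 46.6, 60.3 and 121.2 CPM (n = 8 each). In females above 20 M it had 26.9, 28.6 and 39.7 CPM (n = 3, 5 and 2). The high level of replicate 3 was thus seen at both depths for Cpr72Ec. In DGRP_892 males above 20 M (n = 4 each) replicate 3 was also highest for Osi2, CG6654 and CG13924. Osi2 had 0.834, 0.611 and 2.43 CPM there, CG6654 had 21.5, 24.4 and 28.4 CPM, and CG13924 had 8.13, 8.64 and 9.02 CPM. Females above 20 M, with 2 libraries of replicate 3, did not show it clearly for these genes. In females above 20 M, CG13924 had 6.06, 6.45 and 5.91 CPM, CG6654 had 19.9, 18.6 and 19.2 CPM and Osi2 had 0.6999, 0.608 and 0.718 CPM. Replicate 3 was the lowest there for CG13924, between the others for CG6654 and close to replicate 1 for Osi2. The flanking transcript asRNA:CR45600 was also highest in replicate 3 of DGRP_892, at 8.20 CPM against 4.46 and 5.08 CPM in females and at 10.7 CPM against 5.91 and 5.74 CPM in males.

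**Figure D5:**
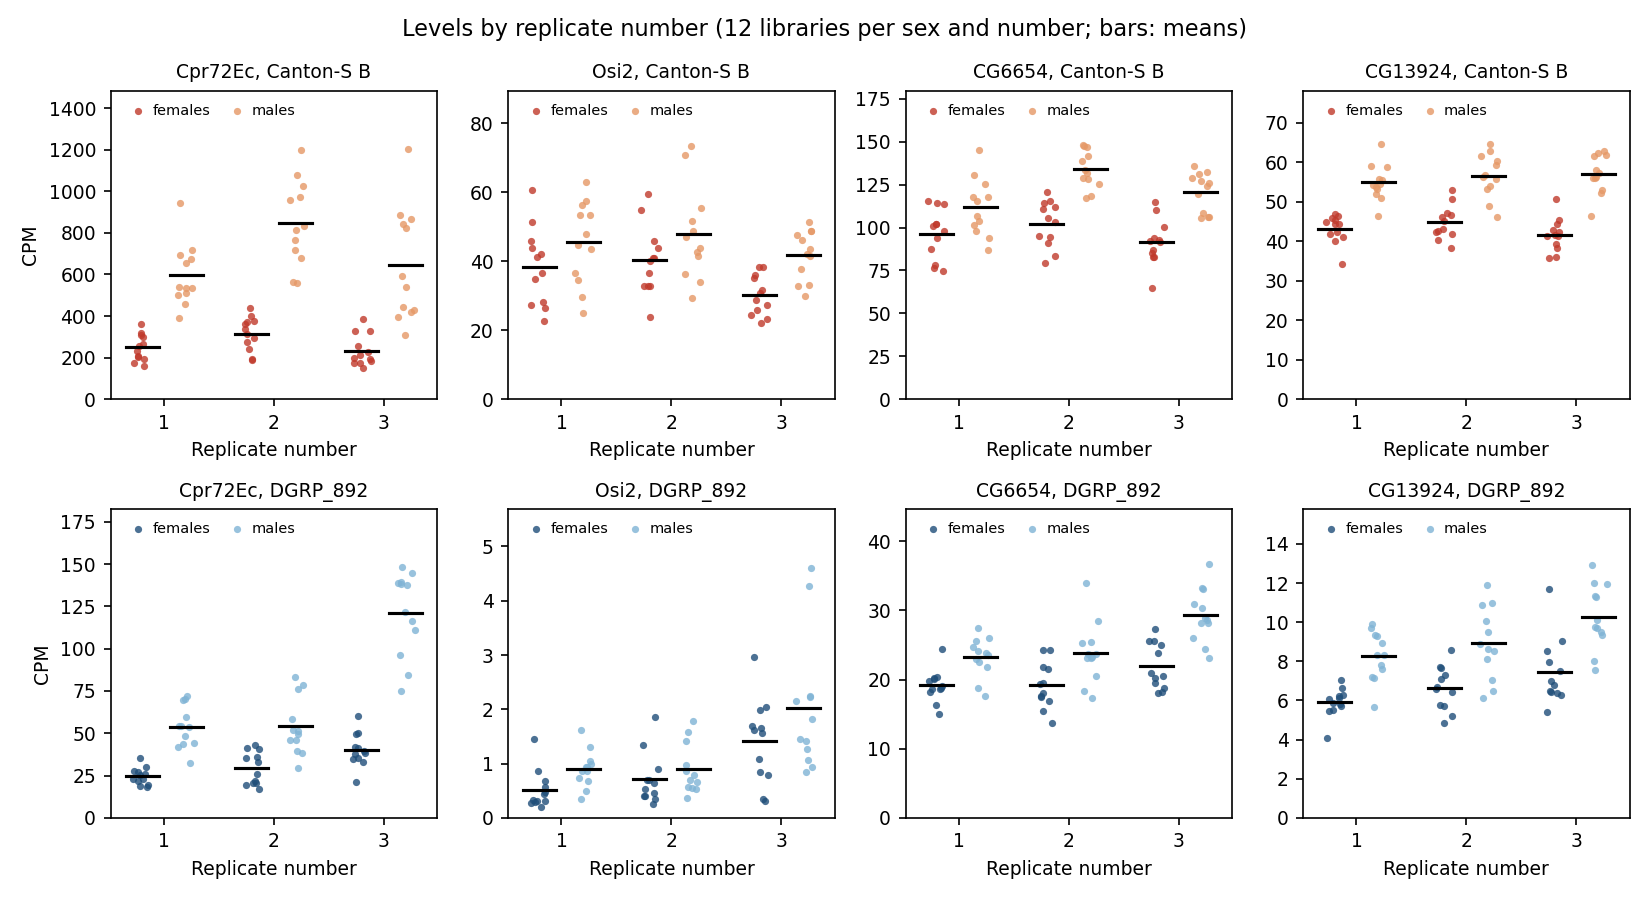
Level in CPM of Cpr72Ec, Osi2, CG6654 and CG13924 in Canton-S B (upper row) and DGRP_892 (lower row) by replicate number and sex, with each library as a point (12 for each number and sex) and means as bars. In DGRP_892 replicate 3 has the highest mean of each gene in both sexes, and in males the mean of Cpr72Ec is 120.9 CPM in replicate 3 against 53.7 and 54.1 CPM in replicates 1 and 2.

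Across the 72 libraries of a line, after the mean of each sex was removed, each member was compared with all genes tested. These correlations are descriptions over libraries that share depth, time and replicate number, and across all genes the median of the highest r of a gene was 0.80 in Canton-S B and 0.77 in DGRP_892. In Canton-S B the genes most like lcs were CG33109 (r = 0.94), CG16826 (0.94) and CG45080 (0.93), all of them set aside by name in the choice of genes. In DGRP_892 they were CG16826 (0.89), whe (0.86) and LysP (0.84). LysP is in the list of gut markers and had a median of 0 CPM in both sexes of DGRP_892. The females with the most lcs in Canton-S B, at 140, 135.1 and 83.001 CPM, had 313, 313 and 94.6 CPM of whe. High and low libraries of lcs were therefore high and low for these genes too.

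Diedel was most like TotM, a Turandot stress gene, in both lines (r = 0.88 in Canton-S B and 0.77 in DGRP_892). The highest Diedel library of Canton-S B females, at 85.01 CPM, also held 667 CPM of TotM and 3289 CPM of TotA. TotM medians were 127.2 and 229 CPM in Canton-S B females and males and 49.6 and 36.6 CPM in DGRP_892, so TotM was lower in the same line as Diedel. Cngl was most like qvr, a neuronal membrane protein gene needed for sleep, in Canton-S B (r = 0.99) and like Snap25, a synaptic gene, in DGRP_892 (0.73). The closest gene to mah in Canton-S B was CG9150 (0.85), which lay just outside the 4-fold threshold. Cpr72Ec was nearest Cad89D (0.80), followed by the opsin gene Rh5 (0.73). Osi2 was nearest prom (0.73), followed by CG2681 (0.72) and the photoreceptor gene chp (0.71). These values of Osi2 lie below the Canton-S B median of 0.80 over all genes. In DGRP_892, Osi2 was nearest asRNA:CR45600 (0.71). Between Cpr72Ec and Osi2, r was 0.62 in females and 0.50 in males of DGRP_892 and -0.04 and -0.21 in Canton-S B (n = 36 each). These values pool the replicate numbers, and both genes were highest in replicate 3 of DGRP_892. They are therefore not separate from the replicate difference, and r within a replicate number was not computed. For the scarce members CG8563, Oatp26F and Ada1-1 the highest r in DGRP_892 did not exceed 0.49, below the median of all genes. The same held for CG43291, CG8757, CG34456 and the more abundant CG13924. The highest r of Cpr72Ec (0.72), Cngl (0.73) and Osi2 (0.71) there was also below that median, and that of Diedel was close to it (0.768 beside 0.770).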

How the data were processed

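Head RNA was sequenced as stranded, poly(A)-selected libraries. Per the submitters' processing notes, FastQC 0.11.5, STAR 2.5.3a and featureCounts 1.5.2 were used, and the strand setting and genome build of the counting were not given in the sources used here. The authors deposited raw read counts per gene and per ERCC transcript. The authors also deposited a table named as TMM-normalized and batch-corrected counts. How the correction was made was not given in the sources used here, some values are below 0, and the unit was taken as a score. The labels give 2 different read lengths.

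CPM were computed over gene counts without ERCC. Differences were tested with edgeR 4.0.16 under R 4.3.3 (scaling by TMM, filterByExpr over 48 groups with a minimum count of 10 and total of 15, robust quasi-likelihood F tests, Benjamini-Hochberg over 10894 genes, threshold 0.05). All 144 libraries shared one estimate of the spread. Sex was tested from the 48 group means, rhythm from a 24-h cosine and sine for each line and sex, and replicate number as a term within each line. SEs of the sex differences are Wald errors. For the amplitudes over the 6 series, the SE is the SD of the series amplitudes along the mean phase, divided by the square root of 6. The sex and 24-h rhythm tests were run on simulated data with effects added in Canton-S B and no effect of replicate number. The tests of replicate number and of the line difference in rhythm were not checked in this way. Replicates are separate runs of the procedure. The mean count of a member per library ran from 5.25 to 12660, which limits the precision of the scarce ones.

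The members and gene lists were chosen with earlier results of these data known, and the tests of replicate number in DGRP_892 and between the lines after the values were seen. Named with values were the 10 members highest per kb of exon in Canton-S B, the 10 with the largest ratio, up to 5 past a sex threshold in each direction, up to 10 past a rhythm threshold, up to 5 past the replicate threshold, and 3 genes on each side of the ratio threshold. Other members were named by role. Relatives were taken by symbol, in place of a planned comparison of protein sequences, which were not used here.

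Alternatives were ERCC scaling, no filter, a replicate block, libraries of one depth class (split at 20 M counts), each replicate number left out, DESeq2 1.42.0, and the deposited score table by limma 3.58.1 on log2(value + 20) with values below 0 set to 0. Positions come from the Ensembl release 115 annotation of FlyBase release 6. Python 3.11.15 and matplotlib 3.10.9 were used for descriptions and figures. In the count table, 1 column of no sample, the gene names, was read as names only.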

Additional observations from a re-analysis of the deposited data

Results flagged for a closer look

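For 4 genes the effect of the replicate number differed between the lines, by edgeR's quasi-likelihood test of the line difference of the replicate-number terms. The adjusted p values were 1.42e-08 for Cpr72Ec, 3.17e-07 for Osi2, 0.000959 for CG6654 and 0.00258 for CG13924. Relative to replicate 1, the log2 difference of replicate 3 was larger in DGRP_892 than in Canton-S B by 0.98 for Cpr72Ec, 1.44 for Osi2, 0.25 for CG6654 and 0.32 for CG13924. In DGRP_892 replicate 3 had the highest mean of each gene in both sexes, whereas in Canton-S B it was the lowest of the 3 in females and above replicate 1 in males for Cpr72Ec (234 against 249 CPM in females, 646 against 596 CPM in males) and CG6654 (91.6 against 96.4 CPM, and 120.98 against 111.99 CPM). Among libraries above 20 M gene counts alone Cpr72Ec passed, and with ERCC scaling Cpr72Ec and Osi2 passed. Without replicate 3 none of the 4 passed. The cause was not tested.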

How the results depend on the processing

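The number of genes chosen was 18. It was 29 with a ratio of at least 3, 10 with at least 6 and 28 with a floor of 1 CPM, and ran from 13 to 20 under the other settings, with 15 to 20 when a replicate number was left out. Restricting the data to libraries above 20 M gene counts left 4 members past the sex test in Canton-S B, beside 19.7% of genes tested. In DGRP_892 it left 6, beside 24.1%. The rhythm test in Canton-S B then called 0, beside 0.487%. For the replicate number 0 members passed in Canton-S B, beside 0.58%, 1 in DGRP_892 and 1 between the lines. With all libraries these shares of genes were 54.6%, 56.9%, 6.01% and 28.5%. The setting above 20 M holds fewer libraries. With the shallower libraries alone, 2 passed the rhythm test and 1 the replicate test in Canton-S B, beside 2.6% and 9.9% of genes. ERCC scaling left 1 past the rhythm test in Canton-S B and gave 1 in DGRP_892, beside 0.34% and 0.441% of genes. It left 2 past the replicate test in DGRP_892 and 2 between the lines. Without the filter, 1 member passed the rhythm test in DGRP_892, beside 1.68% of genes tested. In the authors' table, 2 members passed the replicate test in Canton-S B, beside 35.7% of genes tested. There the sex differences in DGRP_892 of CG14419 (0.39) and Cngl (-0.14) reversed. The causes were not tested. Leaving out each replicate number gave 0 to 4 members past the rhythm test and 0 to 9 past the replicate test in Canton-S B. The shares of all genes ran from 1.81% to 5.6% and from 2.24% to 32.8%. Each of the other replicate tests, in DGRP_892 and between the lines, then called 0 to 4 members. For these 2 tests the shares of all genes are given only for the main setting, 4.13% and 13.4%. Their member counts under other settings are therefore not read as results about the members.

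A replicate block left 12 and 11 members past the sex tests, beside 55.3% and 57.4% of genes tested. It left 4, 0 and 0 past the tests of rhythm in Canton-S B, rhythm in DGRP_892 and their difference, beside 6.49%, 0.477% and 0.174%. The labels do not say that a number is shared between groups. Deviations from the group means had a median r of 0.0501 over library pairs of one number and -0.0265 over pairs of different numbers. The 72 pairs of a female and a male library of one line, time and number had a median r of 0.081, and 31 exceeded 0.1. The main tests did not take the numbers as pairs, although the replicate number separated 28.5% of all genes in Canton-S B and 4.13% in DGRP_892.

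Of the alternatives run on single members past a test, 297 kept the call, 96 lost it and 2, both of them sex differences, reversed. Direction was compared for the sex tests alone, and phase or direction was not compared for rhythm and replicate number. Depth limits the scarce members, such as CG8563 with 5.25 counts a library in DGRP_892 males.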
